A study of Caenorhabditis elegans with 2 samples.

Results

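The regions described here were 565 candidate sites of transcription factor occupancy at the promoters of autosomal genes in first-stage (L1) larvae of Caenorhabditis elegans. They were chosen by their deposited signal and by position. The list they come from is named as peaks and background, so membership does not by itself mean occupancy. The 30000 regions of the pooled list were ranked by signal, a value that the authors' list gives for each region and whose scaling the sources do not state. A region was a member when it ranked 1 to 2000, lay on chromosome I, II, III, IV or V, and had its summit in a promoter window, which reached 1000 bp upstream and 500 bp downstream from a protein-coding gene's annotated 5' end. Of the 2000 strongest regions, 1529 were autosomal, and 964 of these lay outside such windows. The 6684 autosomal regions of lower rank with a summit in a promoter window served as the background throughout.

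Chromatin immunoprecipitation followed by sequencing (ChIP-seq) recovers the DNA bound by a protein, here through a green fluorescent protein tag. Both libraries came from whole, mixed-sex L1 larvae of strain OP355, which carries the mutation unc-119(tm4063) III and the transgene wgIs355, and they were biological replicates 1 and 2 of 1 group with no second condition. Whole larvae hold many cell types, and the sources used here do not give the promoter that drives the transgene. The labels name the tagged gene as mdl-1 in the antibody and source fields and as ZK337.2 in the description, and the values below hold under either name. The lists used here hold no read counts, and library depth is therefore unknown. The intervals below are exact Clopper-Pearson 95% intervals, which cover counting error only, since regions are not replicates of a condition.

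MDL-1 belongs to the Myc, Mad and Max family of helix-loop-helix proteins. Its mammalian relatives, the MAD proteins, repress transcription as partners of MAX and bind palindromic E-boxes, while Myc with MAX activates many of the same targets, among them genes of protein synthesis and metabolism. In C. elegans many messenger RNAs receive a spliced leader in place of their original 5' end, so that an annotated 5' end often lies downstream of the point where transcription starts.

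The sequences at the summits show which strong members carried the E-box or the repeat GAGAGAG. Other frequent sequences of 6 bases, described at the end, are not marked. The first set holds 6 strong members that carry the palindromic E-box CACGTG within 50 bp of the summit and no annotated UTR in that window. Each sequence is 101 bases of build ce11 centred on the summit, read 5' to 3' on the strand of the nearest gene, with the E-box in capitals.
tos-1, chrV:9344249-9344349, minus strand: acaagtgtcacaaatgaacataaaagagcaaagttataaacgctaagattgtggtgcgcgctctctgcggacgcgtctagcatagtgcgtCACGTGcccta
R107.5 and cls-2, chrIII:9054046-9054146, minus strand: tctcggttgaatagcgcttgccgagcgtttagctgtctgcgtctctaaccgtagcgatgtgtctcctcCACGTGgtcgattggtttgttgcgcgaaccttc
F56C9.10, chrIII:7335394-7335494, minus strand: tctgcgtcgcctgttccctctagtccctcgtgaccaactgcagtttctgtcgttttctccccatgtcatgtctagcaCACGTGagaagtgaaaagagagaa
ubxn-3, chrII:221335-221435, minus strand: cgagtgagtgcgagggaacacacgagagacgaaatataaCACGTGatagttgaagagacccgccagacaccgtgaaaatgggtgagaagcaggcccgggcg
his-72, chrIII:12369092-12369192, minus strand: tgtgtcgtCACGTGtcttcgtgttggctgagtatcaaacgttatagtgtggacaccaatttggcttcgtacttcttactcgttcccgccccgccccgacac
gfat-1, chrII:11595814-11595914, minus strand: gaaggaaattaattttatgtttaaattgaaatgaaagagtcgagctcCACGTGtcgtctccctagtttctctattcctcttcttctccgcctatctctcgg
In the tos-1 sequence the E-box lay near one edge of the window, and in those of ubxn-3 and gfat-1 close to the summit. The next pair carries the repeat GAGAGAG, in capitals on either strand.
tasp-1 and K01G5.10, chrIII:10759202-10759302, plus strand: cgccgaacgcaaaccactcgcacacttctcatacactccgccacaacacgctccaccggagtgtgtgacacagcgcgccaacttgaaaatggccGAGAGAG
C09E9.1, chrIV:1274701-1274801, plus strand: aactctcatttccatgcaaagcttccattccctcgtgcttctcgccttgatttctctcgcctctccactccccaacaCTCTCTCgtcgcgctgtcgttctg
Other members of high signal had neither element. These 4 are shown in lower case throughout.
hlh-11, chrIII:9619168-9619268, plus strand: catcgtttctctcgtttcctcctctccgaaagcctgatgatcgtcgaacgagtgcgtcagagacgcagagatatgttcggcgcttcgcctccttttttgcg
enpl-1 and imp-2, chrIV:11119187-11119287, plus strand: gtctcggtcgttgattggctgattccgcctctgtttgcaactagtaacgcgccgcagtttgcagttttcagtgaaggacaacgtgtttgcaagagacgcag
rpl-15 and K11H12.8, chrIV:654878-654978, minus strand: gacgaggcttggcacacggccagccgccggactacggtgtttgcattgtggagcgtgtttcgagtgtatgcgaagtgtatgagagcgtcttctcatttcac
rpl-3, chrIII:3867535-3867635, plus strand: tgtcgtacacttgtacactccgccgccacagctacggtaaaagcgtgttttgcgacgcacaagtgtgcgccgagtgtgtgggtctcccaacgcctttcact

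The signal of the members ran from 30.92 to 221.9 with a median of 35.4 and quartiles of 32.7 and 41.4. Only 85 exceeded 50 and 13 exceeded 100. These values chose the members and are a description. At the cutoff the last members were the regions of C29F5.8 (rank 1998, signal 30.9271) and sbt-1, which encodes a chaperone of neuropeptide processing enzymes (rank 2000, signal 30.9240). The next autosomal promoter regions were those of unc-53 (rank 2003, signal 30.9180) and C03D6.1 (rank 2004, signal 30.9173), so no gap in signal marked the cutoff. The authors' threshold was passed by 87 members (15.4%), against 0.863% of the whole pooled list. Per the deposited readme texts, the thresholded regions were selected by an irreproducible discovery rate from the pooled list together with those of both replicates, so agreement between replicates entered that choice. The 87 are the members ranked 1 to 259, and nothing is read from the difference.

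The strongest member lay between the divergent genes tasp-1, a relative of the threonine protease taspase, and K01G5.10. Its pooled signal was 221.9, with 97.1 in replicate 1 and 124.9 in replicate 2. The region of tos-1, a gene known as a target of regulated splicing, reached 173 pooled, 88.8 in replicate 1 and 83.4 in replicate 2. That of iff-2, which encodes the translation factor eIF5A, and F54C9.14 reached 165 pooled, 79.5 in replicate 1 and 78.7 in replicate 2. All of these regions stood among the 30 strongest of each replicate.

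Genes of protein folding and turnover followed. The region shared by ubql-1, a ubiquilin, and pdi-3, a protein disulfide isomerase, had 152.6 pooled, 68.8 in replicate 1 and 85.5 in replicate 2. That of enpl-1, an endoplasmic reticulum chaperone, and imp-2 had 120.2, 63.3 and 55.8 in the same order. The region of cdc-48.1, an ATPase that extracts ubiquitinated proteins, had 109.8, 65.4 and 46.8. The calreticulin gene crt-1 had 75.6 pooled, with 25.04 in replicate 1 and 51.1 in replicate 2. Of these, crt-1 differed most between the libraries, with ranks of 479 and 60.

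Regulators of transcription and chromatin also stood high. The region of met-1, a histone H3 lysine methyltransferase, had 134.7 pooled, 51.9 in replicate 1 and 77.9 in replicate 2. That of hlh-11, itself a basic helix-loop-helix factor, had 133.5, 64.85 and 66.8. That of cbp-1, the CBP and p300 acetyltransferase, had 101, 42.7 and 55.7, and its summit lay 846 bp upstream. The region between ceh-38, a cut-type homeobox factor, and malt-1 had 101.7, 61.2 and 39.04. All ranked within the first 130 of each replicate.

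The other regions among the 25 strongest belonged to C09E9.1 (158.6), rpl-15 and K11H12.8 (118.3), R107.5 and cls-2 (115.9), Y39G10AR.11 (98.1) and rpl-3 (88.7). They continued with ndk-1, a nucleoside diphosphate kinase, and F25H2.6 (83.65), cox-5A, a subunit of cytochrome c oxidase (80.9), asd-1, a splicing regulator (79.99), and lgg-2, an Atg8 homologue (79.35). The last were F02E9.5 (77.9), egg-5 (75.6), ntl-2, a subunit of the CCR4-NOT complex (75.4), ztf-7 (75.1) and B0546.4 (74.7). The asd-1 region had the widest split of ranks among the 25, at 50 in replicate 1 and 1106 in replicate 2.

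**Figure D1:**
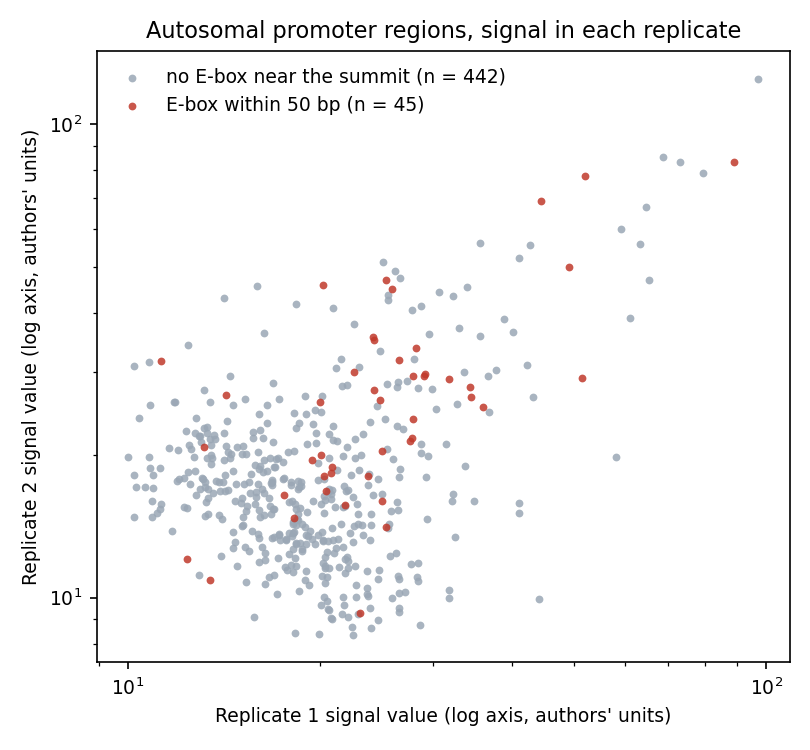
Signal in replicate 1 (x axis) and replicate 2 (y axis) of the 487 members matched in both lists, on log axes and in the authors' units. Each point is 1 region, and red points are the 45 with the E-box within 50 bp of the summit. A few regions with high signal in both replicates lie at the upper right, up to 97.1 and 124.9, and most members form a cloud around the medians.

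Matching a member to the nearest region of a replicate's own list, with summits at most 200 bp apart, found 530 members in replicate 1 and 522 in replicate 2. These were 93.8% and 92.4% of members, against 59.3% and 50.55% of the background. Strong autosomal regions outside promoter windows were matched at 93.4% and 90.35%. The median signal of the matched members was 20.05 in replicate 1 and 17.55 in replicate 2, and the highest was 97.1 and 124.9. A member could be strong in the pooled list without being so in both libraries. Only 117 of 565 (20.7%, interval 17.4% to 24.3%) were among the 2000 strongest of both replicates, and 160 (28.3%) were so in neither. Of the strong autosomal regions outside promoter windows, 14% (interval 11.9% to 16.4%) were among the strongest of both and 29.6% of neither. Since the pooled list was made from both libraries, these shares describe the regions and are not independent measures of agreement.

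The share of members among the strongest of both replicates fell with rank, as the pooled signal largely fixes. The 2000th region had a signal of 19.87 in replicate 1 and 17.73 in replicate 2, which sum to 37.6, and the pooled signal was close to the sum of both replicates (median ratio 1.03 over the 487 members matched in both). The pooled signal was below 37.6 at 352 members. All 23 members ranked 1 to 100 were among the 2000 strongest of both replicates, as were 56 of 64 ranked 101 to 259 (87.5%) and 28 of 68 ranked 260 to 500 (41.2%). Below that it was 9 of 145 ranked 501 to 1000 (6.21%), 1 of 133 ranked 1001 to 1500 and 0 of 132 ranked 1501 to 2000. Some single genes rested on 1 library. The region of cct-7, a subunit of the CCT chaperonin, had a signal of 44.05 in replicate 1 and 9.94 in replicate 2, where it ranked 19984. The region of hsr-9 and rps-19 had 10.8 in replicate 1 and 31.5 in replicate 2.

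An independent reading came from choosing regions in one replicate and looking for them in the other. Replicate 1 alone gave 529 autosomal promoter regions among its own 2000 strongest, and 117 of them (22.1%, interval 18.65% to 25.9%) were matched among the 2000 strongest of replicate 2. Of its 6652 weaker promoter regions 2.15% were matched in the same way. With positions moved by 10000 bp, the strong regions were matched at 0.378%. Chosen in replicate 2 and read in replicate 1, 118 of 514 were matched (22.96%), against 2.32% of the weaker ones. By rank in replicate 1, 91.3% of the regions ranked 1 to 100 were found again, 59.2% of those ranked 101 to 259, 38.2% of those ranked 260 to 500, 15.1% of those ranked 501 to 1000 and 8.37% of those ranked 1001 to 2000. By rank in replicate 2, the shares found again in replicate 1 were 89.7%, 65.2%, 34.7%, 11.45% and 9.32% in the same order.

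Regions with the E-box were found again more often than those without it. Of the 38 strong promoter regions of replicate 1 with CACGTG within 50 bp of the summit, 24 (63.2%, interval 45.99% to 78.2%) were matched among the strongest of replicate 2, against 93 of 491 without it (18.9%, interval 15.6% to 22.7%). Chosen in replicate 2, the shares were 27 of 41 (65.85%, interval 49.4% to 79.9%) and 91 of 473 (19.2%, interval 15.8% to 23.1%). The intervals did not overlap in either direction. Regions with the E-box also ranked higher, so the shares were taken again within rank classes. At ranks 1 to 500 of replicate 1, 16 of 19 with the E-box were found in replicate 2 (84.2%, interval 60.4% to 96.6%) and 60 of 121 without it (49.6%, interval 40.4% to 58.8%). At ranks 501 to 2000 the shares were 8 of 19 (42.1%, interval 20.25% to 66.5%) and 33 of 370 (8.92%, interval 6.22% to 12.3%). Chosen in replicate 2, they were 83.3% and 49.6% in the upper class and 41.2% and 8.57% in the lower one. Ranks and GC content can still differ within a class, and their part in the difference was not tested.

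Among the members, 50 of 565 (8.85%, interval 6.64% to 11.5%) had CACGTG within 50 bp of the summit, against 2.21% of the background. The strongest were those of tos-1 (173), met-1 (134.7), R107.5 and cls-2, a microtubule-binding CLASP protein (115.9), Y39G10AR.11 (98.1) and ndk-1 and F25H2.6 (83.65). They were followed by F56C9.10 (72.85), ubxn-3, a UBX-domain cofactor of CDC-48 (69.6), his-72, a histone H3.3 gene (64.3), gfat-1, the entry enzyme of the hexosamine pathway (63.7), and rpl-14, a protein of the large ribosomal subunit (62.2). Of these 10, his-72 was the least even, with 20.2 in replicate 1 (rank 1834) and 45.65 in replicate 2 (rank 86). The 50 reached 57 genes, and 37 of their summits were intergenic.

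**Figure D2:**
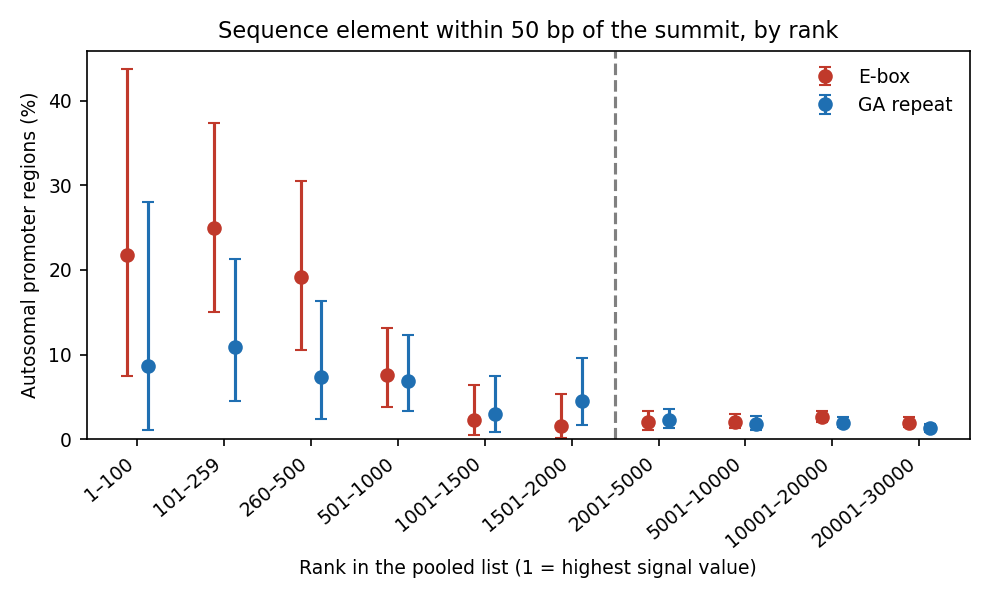
Percent of autosomal promoter regions (y axis) with the E-box (red) or the GA repeat (blue) within 50 bp of the summit, by rank in the pooled list (x axis), with exact 95% intervals; the dashed line marks rank 2000. The E-box falls from 25% at ranks 101 to 259 to 2.26% at ranks 1001 to 1500, the level of the regions outside the cutoff.

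The E-box share depended on rank. It was 5 of 23 (21.7%) at ranks 1 to 100, 16 of 64 (25%) at ranks 101 to 259 and 13 of 68 (19.1%, interval 10.6% to 30.5%) at ranks 260 to 500, which lie below the authors' threshold. It was 11 of 145 (7.59%) at ranks 501 to 1000, 3 of 133 (2.26%) at ranks 1001 to 1500 and 2 of 132 (1.52%) at ranks 1501 to 2000. The members ranked 1001 to 2000 were thus within counting error of the background, while at ranks 501 to 1000 the interval of 3.85% to 13.2% lay above it. Of the 50 E-box members, 34 ranked 1 to 500. In the replicates' own lists the share was 7.18% of the strong promoter regions against 1.41% of the weaker ones in replicate 1, and 7.98% against 2.47% in replicate 2.

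The E-box also lay near the summit more often than farther out. Within 250 bp, 102 members held at least 1 CACGTG, at a median distance of 51.5 bp, and 30 of them within 25 bp. In the background 637 regions did, at a median of 118.5 bp. Members with the E-box had a median signal of 46.02 against 34.9 without it. The bases on either side of the E-box varied, and the most frequent pairing, A before and A after, made up 9 of 50.

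**Figure D3:**
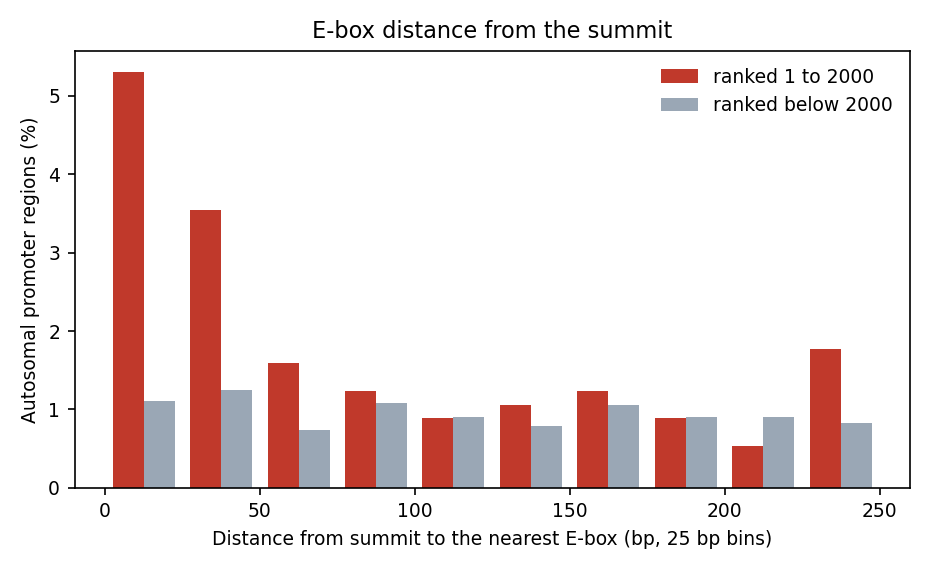
Percent of autosomal promoter regions (y axis) by distance in bp from the summit to the nearest E-box (x axis, bins of 25 bp), for members (red, n = 565) and the background (grey, n = 6684). The members stand at 5.31% in the first bin and 3.54% in the second, and the background at 1.11% and 1.24%.

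The repeat GAGAGAG was found at 34 members (6.02%, interval 4.20% to 8.31%), against 1.72% of the background. It was less even between the replicates than the E-box, with 3.40% against 1.43% in replicate 1 and 8.17% against 2.10% in replicate 2. Both elements were present at 3 members (0.531%), against 0.015% of the background and 1.87% of the strong autosomal regions outside promoter windows. CACGCG, which differs from the E-box at a single base, stood at 5.31% (interval 3.61% to 7.49%) against 1.29%. The E-box CATGTG was at 4.78% (interval 3.17% to 6.88%) against 3.02%, and CAGCTG, the type bound by tissue-specific helix-loop-helix factors, at 2.83% (interval 1.63% to 4.56%) against 2.21%. TGATAA, the type bound by GATA factors, was at 8.14% against 9.02%, and GTAAACA, the forkhead type, at 1.24% against 1.23%. TGACTCA, the AP-1 type, was at 0.354% (interval 0.0429% to 1.27%) against 1.09%, and the run TTTTTTTT at 6.19% (interval 4.35% to 8.51%) against 10.5%. All were searched on both strands, and a match is a description of the sequence.

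GC content moved with rank and touches each of these shares. The median over the 101 bases was 41.6% at members and 35.6% in the background, and it was 52.5% at ranks 1 to 100 and 38.6% at ranks 1501 to 2000. It also differed between libraries, at 36.6% for the strong promoter regions of replicate 1 and 43.6% for those of replicate 2. Within windows of 35% to 45% GC the E-box was at 9.33% of members (interval 5.87% to 13.9%) and 3.01% of the background, and at 45% GC or more it was at 13.8% (interval 9.24% to 19.6%) and 3.84%. The GA repeat in the same classes was at 5.78% against 1.74% and at 10.1% against 4.80%. CACGCG was at 2.22% (interval 0.725% to 5.11%) against 1.39% in the middle class and at 12.8% against 3.41% in the highest. Below 35% GC the E-box was at 1.97% (interval 0.409% to 5.66%) against 1.12%, which counting error does not separate. For CATGTG the interval of the members included the background in every class, at 3.95% (interval 1.46% to 8.39%) against 2.27% in the lowest, 4.44% (interval 2.15% to 8.02%) against 3.37% in the middle and 5.85% (interval 2.96% to 10.2%) against 4.69% in the highest. The lower share of TTTTTTTT at members did not hold at 45% GC or more, where it was 4.26% (interval 1.86% to 8.21%) against 1.39%.

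**Figure D4:**
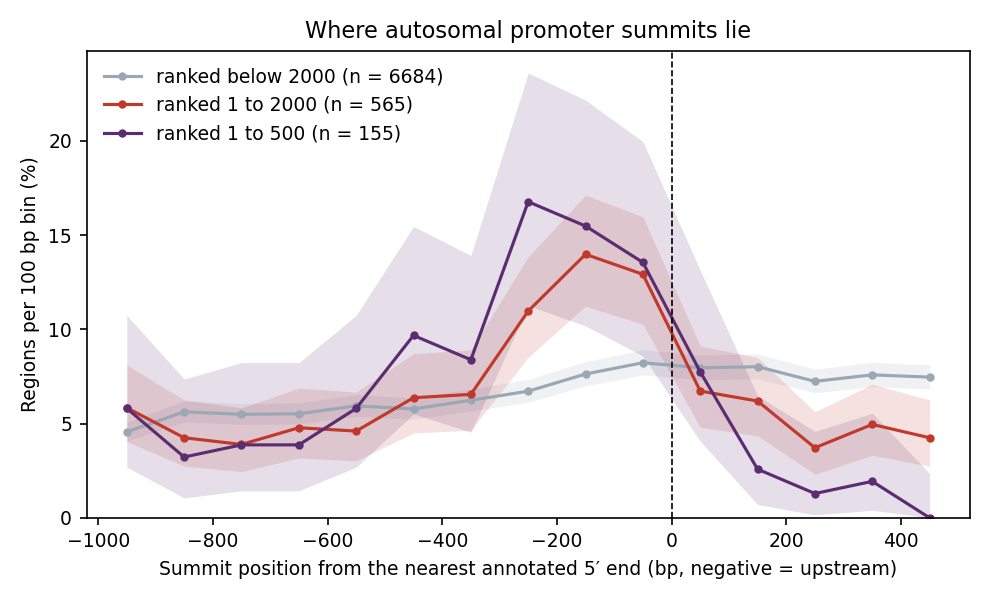
Percent of regions (y axis) by summit position in bins of 100 bp from the nearest annotated 5' end (x axis, negative upstream), with shaded exact 95% intervals, for all members (red), members ranked 1 to 500 (purple) and the background (grey). Members peak at 13.98% in the bin from 200 to 100 bp upstream and the background runs between 4.56% and 8.23% per bin.

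Within the promoter window the members gathered just upstream of the 5' end. The summit was upstream at 419 of 565 (74.2%, interval 70.3% to 77.7%), against 61.7% of the background. Within 300 bp upstream lay 37.9% of members and 22.6% of the background. Upstream summits made up 95.65% at ranks 1 to 100, 92.2% at ranks 101 to 259, 77.9% at ranks 260 to 500 and 63.6% at ranks 1501 to 2000, where the interval of 54.8% to 71.8% included the background. The tasp-1 and iff-2 summits lay 55 and 50 bp upstream. Others sat further out, such as hlh-11 at 493 bp and cbp-1 at 846 bp.

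By annotation, 331 members (58.6%) were intergenic, against 45.1% of the background. Introns held 10.4% against 20.7%, and coding exons 17.3% (interval 14.3% to 20.7%) against 25.2%. Coding exons held 0 of 23 summits at ranks 1 to 100 and 0 of 64 at ranks 101 to 259, which allows up to 5.60%, but 7 of 68 at ranks 260 to 500 and 35 of 133 at ranks 1001 to 1500 (26.3%). The 5' UTR held 5.13% against 4.04%. Non-coding genes held 34 members (6.02%) against 1.39%.

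A small RNA gene lay within 200 bp of 24 member summits (4.25%, interval 2.74% to 6.26%), against 0.823% of the background. At 7 of the 87 members ranked 1 to 259 this was so. The summit assigned to egg-5, which lay 585 bp upstream of that gene, was beside the spliced leader RNA gene sls-2.4 (pooled signal 75.6, 40.9 in replicate 1 and 52.2 in replicate 2). Those assigned to H41C03.3 and to Y75B8A.23 and tim-1 were beside sls-2.1 and sls-2.8. For such regions the protein-coding gene in reach and the small RNA gene cannot be told apart as the site's neighbour. This also holds for regions named below, those of eif-2Bgamma, snr-4, ceh-43, pas-5, cox-6A, col-85, flp-23 and fbxa-83.

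Many members were shared by neighbouring genes. A member lay in the windows of 2 or more genes in 111 of 565 cases (19.65%, interval 16.45% to 23.2%), against 14.6% of the background. In 99 of them (17.5%, interval 14.5% to 20.9%, against 12.2%) the genes lay on opposite strands. The share on opposite strands followed no even order, with 8 of 23 at ranks 1 to 100, 12 of 64 at ranks 101 to 259 (18.75%), 20 of 68 at ranks 260 to 500 (29.4%, interval 18.98% to 41.7%) and 11.4% at ranks 1501 to 2000. In 7 regions 3 genes were in reach. These were cux-7, C07H6.2 and lig-4 (52.7), W03C9.5, rab-7 and mex-1 (49.4), his-41, his-35 and C50F4.6 (38.6), and tin-9.2, exos-4.1 and dli-1 (35.01). The others were atp-5, lmtr-3 and mboa-2 (33.5), zyg-1, F59E12.17 and sam-4 (31.7), and rbm-3.2, ubc-12 and rbm-3.1 (31).

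In all, 669 of 17242 autosomal protein-coding genes (3.88%) had a member in their window, and 14 of them had 2 members. The gene lists that follow were described by counts beside that share. A member ranked 1 to 500 was present at 197 of the 669 genes, and list counts at those ranks are a description beside it. Genes that share a region are not independent, and a gene counts for a list whichever of its neighbours is closer. Chosen in each replicate alone, the share of all genes was 3.62% in replicate 1 and 3.58% in replicate 2, and lists whose count then moved by more than 1.5 times are given with both values.

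**Figure D5:**
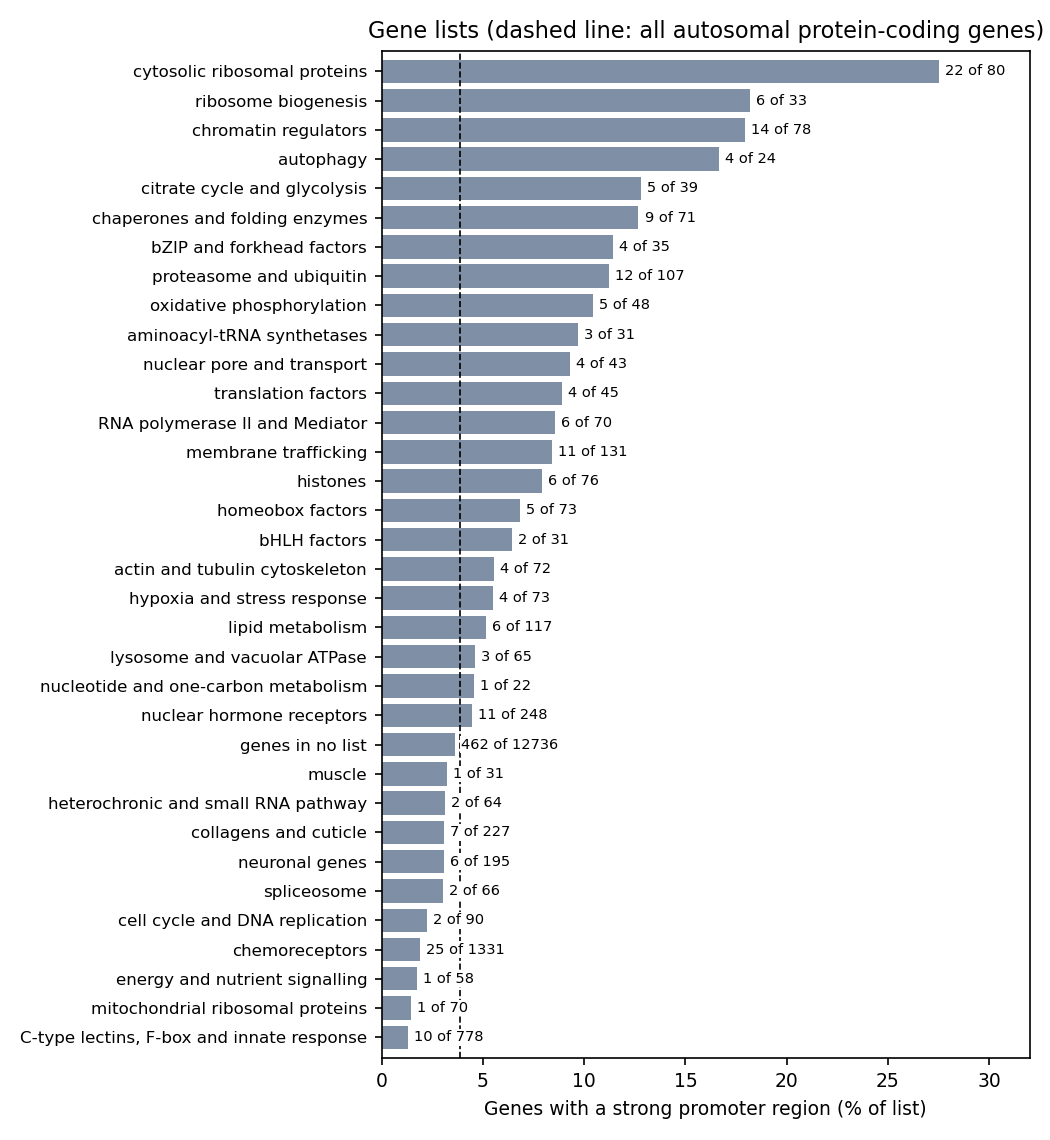
Gene lists (y axis) and the percent of their autosomal genes with a member region in the promoter window (x axis), with the counts at each bar; the dashed line is the 3.88% of all autosomal protein-coding genes. Cytosolic ribosomal proteins stand highest at 22 of 80, and chemoreceptors and lectins stand below the line.

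Genes of protein synthesis held the highest share. Of 80 cytosolic ribosomal protein genes, 22 (27.5%) had a member, and 12 of these ranked 1 to 500. Most of the 22 genes shared their region with another gene, which was the nearer at rps-12, rps-19, rps-20 and rpl-20 among others. The region of rpl-15 had a pooled signal of 118.3, with 59.2 in replicate 1 and 60.2 in replicate 2, and that of rpl-3 had 88.7, 35.55 and 56.2. The regions of rps-1 and rps-12 had 71.5 and 71.2 pooled. The E-box was at the summit for 1 of the 22, rpl-14, and for 57 of all 669 genes with a member. The gene's member of highest signal lay 200 to 600 bp upstream of the 5' end at 18 of the 22 genes, and at 215 of all 669 genes with a member. This range was not planned and is not among the position classes used above. Chosen in each replicate alone, the list had 15 genes (18.75%) in replicate 1 and 19 (23.75%) in replicate 2. The regions of rps-19, rps-20, rpl-20 and rps-5 ranked within the first 400 of one replicate and beyond 5000 in the other.

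The other lists of protein synthesis were uneven. Ribosome biogenesis had 6 of 33 genes (18.2%), among them lpd-7 (49.1, in a region shared with rpl-9), pro-2 (45.97), ruvb-2 (43.3) and the nucleolar protein gene nol-56 (38.4). Translation factors had 4 of 45, with iff-2 (165), eif-2Bgamma (71.1), eef-1B.1 (36.6) and eif-2gamma (33.45). The eif-2Bgamma summit lay 965 bp upstream, beside the genes sup-39 and mir-1831. Aminoacyl-tRNA synthetases had 3 of 31, namely kars-1 (41.2), gars-1 (35.4) and vars-1 (31.4). Mitochondrial ribosomal proteins had 1 of 70, mrpl-28 (40.9). This low count did not hold in the replicates' own lists, where the group had 5 of 70 (7.14%) in replicate 1 and 8 of 70 (11.4%) in replicate 2, both above the share of all genes.

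Chromatin regulators had 14 of 78 genes (17.95%), 5 of them at ranks 1 to 500, beside 197 of all 669 genes with a member. After met-1 (134.7) and cbp-1 (101) came set-4, a histone H4 methyltransferase (62.9), and lin-54, the DNA-binding subunit of the DRM complex (49.9, in a region shared with rpl-12). The list also held lin-9, lin-35 and lin-53 of the same complex, at 33.9, 33.7 and 32.9. They ranked 4130, 6021 and 27442 in replicate 1, and 1226, 8987 and 452 in replicate 2. The regions of lin-35 and lin-53 were shared with a nearer gene. Histones had 6 of 76, led by his-72 (64.3) and his-37 (59.5), with his-35 and his-41 in one region (38.6). The general transcription list had mdt-19 (49.55), mdt-8 (44.6), mdt-26 (40) and mdt-22 (34.2) of the Mediator complex among 6 of 70. The spliceosome had 2 of 66, snr-4 (42.7) and prp-40 (39.5). Nuclear pore and transport had 4 of 43, the importins imb-3 (46.6, with the E-box) and imb-1 (35.3) and the nucleoporins npp-7 (37.03) and npp-3 (33.6). Several of these counts differed between the libraries. Chromatin regulators had 7 of 78 (8.97%) in replicate 1 alone and 12 (15.4%) in replicate 2 alone, both above the share of all genes. Histones had 5 and 2 of 76 in the same order, general transcription 2 and 7 of 70, the spliceosome 2 and 7 of 66, and nuclear pore and transport 3 and 2 of 43.

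Among transcription factors, nuclear hormone receptors had 11 of 248 (4.44%), led by nhr-49, a regulator of fat metabolism (52.2), nhr-47 (47.8), nhr-180 (36.2) and nhr-52 (36.15). Homeobox factors had 5 of 73, with ceh-38 (101.7) ahead of ceh-57 (33.7), ceh-7 (32.5) and ceh-43 (32.35). Helix-loop-helix factors had 2 of 31, hlh-11 (133.5) and lin-22 (39.8). The bZIP and forkhead list had 4 of 35 (11.4%), namely daf-16, the FOXO factor of insulin signalling (41.7), xbp-1, a factor of the unfolded protein response (39.02), zip-2 (33.3) and atf-8 (32.5). In each replicate alone the bZIP and forkhead list had 2 genes (5.71%). Homeobox factors had 5 of 73 in replicate 1 alone and 2 in replicate 2 alone, and helix-loop-helix factors 3 and 1 of 31.

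Of the lists of protein folding and turnover, chaperones and folding enzymes had 9 of 71 (12.7%, also in each replicate alone), 6 of them at ranks 1 to 500. After pdi-3 (152.6), enpl-1 (120.2) and crt-1 (75.6) came cct-7 (58.05), which rested on replicate 1. Proteasome and ubiquitin genes had 12 of 107 (11.2%), led by cdc-48.1 (109.8), rpn-11, the deubiquitinase of the proteasome lid (69.9), ubxn-3 (69.6) and pas-5 (48.1). Autophagy had 4 of 24 (16.7%), lgg-2 (79.35) and its fellow Atg8 homologue lgg-1 (55.7), atg-9 (49.2, with the E-box) and atg-13 (34.3). Lysosome and vacuolar ATPase genes had 3 of 65, vha-8 (44.8), lmtr-3 (35.1) and vha-13 (33.8). In replicate 1 alone and replicate 2 alone, proteasome and ubiquitin genes had 10 (9.35%) and 7 (6.54%) of 107, autophagy 5 and 4 of 24, and the lysosome list 1 and 5 of 65. The lysosome list thus stood below the share of all genes in replicate 1 and above it in replicate 2.

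In metabolism, the citrate cycle and glycolysis had 5 of 39 genes (12.8%), led by cts-1, citrate synthase (58.75), hxk-3, a hexokinase (41.3, with the E-box), ldh-1, lactate dehydrogenase (39.6), and aco-2, aconitase (36.6). Oxidative phosphorylation had 5 of 48 (10.4%), led by cox-5A (80.9), nduf-2.2 (55.5), atp-5 (35.1) and cox-6A (32.8). Lipid metabolism had 6 of 117, led by kat-1 (41.2), cpt-2 (39.6), pcyt-2.1 (39.2) and mboa-2 (33.5), and nucleotide metabolism 1 of 22, adss-1 (34.4). The regions of aco-2, nduf-2.2, atp-5 and kat-1 also counted for other lists, through eef-1B.1, dlc-1, lmtr-3 and kars-1 in that order. Energy and nutrient signalling had 1 of 58, ogt-1, the O-GlcNAc transferase (42.9). Hypoxia and stress response had 4 of 73, gst-20 (61.5, with the E-box), gst-5 (37.3), sod-1 (34.6) and brap-2 (32.55, with the E-box). In replicate 1 alone and replicate 2 alone, oxidative phosphorylation had 3 (6.25%) and 7 (14.6%) of 48, and nucleotide metabolism 3 and 2 of 22.

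Membrane trafficking had 11 of 131 genes (8.40%), of which 8 ranked 1 to 500. They were led by vps-32.1, an ESCRT component (66.9), sec-61.G, a subunit of the translocon (64.75), vps-4, the ESCRT ATPase (56.6), and unc-108, the Rab2 homologue (53.3, with the E-box). The cytoskeleton had 4 of 72, dlc-1 (55.5), tba-7 (38.6), tbb-2 (36.1) and dli-1 (35.01). The cell cycle had 2 of 90, cdc-14 (42.4) and knl-3 (39.8), and heterochronic and small RNA genes 2 of 64, nhl-2 (66.9) and lin-66 (35.4). The cell cycle list had 2 genes in replicate 1 alone and 4 (4.44%) in replicate 2 alone.

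Among genes of differentiated tissues, collagens and cuticle genes had 7 of 227 (3.08%), led by col-85 (39.8), col-38 (35.4), col-89 (35.2) and col-86 (35.1). Neuronal genes had 6 of 195 (3.08%), led by flp-23 (39.8), unc-40 (37.03), rgef-1 (36.4) and lgc-52 (35.9). Neither list had a region at ranks 1 to 500. The lists follow symbol patterns and do not hold every neuronal gene. Outside them, unc-16 (68.9), npr-23 (58.7) and eat-16 (53.1) had members at those ranks. Muscle genes had 1 of 31, myo-6 (42.2). Chemoreceptors had 25 of 1331 (1.88%), none at ranks 1 to 500, led by srd-23 (38.9, with the E-box), srh-300 (38.5), sre-55 (38.4) and sri-18 (37.1). Lectins, F-box and innate response genes had 10 of 778 (1.29%), led by fbxa-83 (52.4), ugt-38 (48.4), dod-22 (38.8) and ugt-65 (37.6). Small RNA genes lay within 200 bp of the col-85, flp-23 and fbxa-83 summits. The region of unc-40 was shared with npp-7, and that of col-38 with a ribosomal protein gene. In replicate 1 alone and replicate 2 alone, neuronal genes had 8 (4.10%) and 2 (1.03%) of 195, muscle genes 1 and 3 (9.68%) of 31, chemoreceptors 26 and 20 of 1331, and lectins and the genes listed with them 23 (2.96%) and 17 (2.19%) of 778. The chemoreceptor and lectin lists were thus below the share of all genes in each replicate, and the neuronal and muscle lists were not. The collagen list was also below it, narrowly, with 8 (3.52%) and 7 (3.08%) of 227. Counting error was not computed for these shares. Of the 12736 genes in no list, 462 (3.63%) had a member.

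The members were also set beside the 964 autosomal regions of the same ranks outside promoter windows. The E-box was at 8.85% of members and 7.99% of those regions (interval 6.36% to 9.88%), and the GA repeat at 6.02% and 7.99% (interval 6.36% to 9.88%), with overlapping intervals in both cases. Small RNA genes stood within 200 bp of 4.25% and 4.15%. The elements were thus not shown to differ between strong promoter regions and strong regions elsewhere on the autosomes. By chromosome, the members numbered 100 on I, 102 on II, 115 on III, 106 on IV and 142 on V. Chromosome III held 20.35% of members and 16.2% of the background, and chromosome V 25.1% and 28.6%.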

How the data were processed

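Regions came from 2 ChIP-seq libraries of 1 group. The signal per region is a deposited value made by the authors, and the sources used here do not give its scaling. Per the deposited readme texts, the lists were derived from alignments with a control, and the control was not analysed here. For the aligner, the peak caller and their versions: not given in the sources used here. Pooled and replicate relaxed lists of ce11 held 30000 regions each, and lists for ce10 were not used. Coordinates are 1-based. Genes came from Ensembl release 115 (WBcel235, the assembly of ce11), with 1 window per gene at its outermost 5' end, and sequence from the RefSeq genome of the same assembly.

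Regions were ranked by signal, assigned to windows, searched on both strands, 50 bp to either side, for 9 sequences, and matched between lists within 200 bp, with Python 3.11.15, pandas 2.3.3, numpy 2.4.6 and scipy 1.17.1. The scripts were tested on simulated data. Depth is unknown, so no precision from read counts can be given. A replicate region could match more than 1 member.

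The members and the 33 gene lists, built from symbol patterns, were chosen with earlier results of these data known. Wrong prefix matches were removed from the lists after members were seen. Named genes are those of the 25 strongest members, up to 4 per list, the 10 strongest E-box members, the regions at the cutoff and regions of 3 genes. Further genes were named after their values were seen, namely those with uneven replicates or beside small RNA genes, and lin-9, lin-35, lin-53, rpl-12, rpl-9, rps-5, rps-19, rps-20 and rpl-20. The same holds for unc-16, npr-23 and eat-16. Alternatives changed the cutoff, windows, matching, threshold and replicates.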

Additional observations from a re-analysis of the deposited data

How the results depend on the processing

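The number of members was 300 with a rank cutoff of 1000, 362 with narrower windows (500 bp upstream, 200 bp downstream) and 87 with the authors' thresholded regions only, and 514 to 529 with a replicate left out. With the cutoff of 1000 the shares were 15% for CACGTG, 79.7% for upstream summits and 24% for windows of 2 or more genes, and the median GC content was 44.55%. With the cutoff of 3000 CACGTG fell to 6.33% and GC to 39.6%. In thresholded regions only, CACGTG was at 24.1%, GAGAGAG at 10.3%, upstream summits at 93.1%, windows of 2 or more genes at 26.4% and GC at 49.5%. Ribosomal protein genes were at 8.75% (7 of 80) with these 87 regions. The share of all genes, which falls with fewer regions, was not computed in that setting, so the 2 cannot be compared. With the narrow promoter windows upstream summits were at 79.8%. Sequence windows of 25 and 100 bp gave 4.78% and 11.7% for CACGTG, and 2.48% and 10.3% for GAGAGAG, with GC at 39.8% for 100 bp. Background shares were not taken with these windows. With a replicate left out GAGAGAG was at 3.40% to 8.17%, upstream summits at 70.2% to 74.7% and GC at 36.6% to 43.6%; CACGTG was at 7.18% to 7.98%. The share among the strongest of both replicates was 13.98% with matching within 50 bp, and 26.7% and 17.3% with cutoffs of 1000 and 3000 in every list. The share of replicate 1 regions found in replicate 2 was 14.2%, 30.45% and 18.5% under the same changes. Fewer or more regions follow from the cutoffs by construction; otherwise the cause was not tested. Removing summits within 300 bp of a stronger one left 561 members and moved no value beyond its interval.

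No paired analysis was possible because the libraries form 1 group. The effect of library depth on weak ranks was not tested, since no depth is given. Each relaxed list is fixed at 30000 regions. With 2 replicates, shares carry counting error only.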

Other observations

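The pooled signal of a member was close to the sum of its signals in both replicates. Over the 487 members matched in both lists, the ratio of the pooled signal to that sum had a median of 1.03 and quartiles of 0.982 and 1.08, and 77.8% of members lay within 10% of the sum. At ranks 1 to 259 this was so for 81 of 87. A region could therefore enter the 2000 strongest through one library, as at cct-7, with 44.05 in replicate 1 and 9.94 in replicate 2 for 58.05 in the pooled list. The sources used here do not say how the signal was computed.

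Among all sequences of 6 bases, several other than CACGTG were also more frequent at members than in the background. CGTCTC was within 50 bp of 75 summits (13.3%), against 3.31% of the background. GACGCA was at 67 (11.9%) against 2.96%, beside 8.85% against 2.21% for CACGTG. In windows of 45% GC or more, GACGCA stood at 50 of 188 members (26.6%) and at 7.25% of the background. These sequences were chosen after their values were seen. They share GC-rich bases and overlap one another, since the sequence AGACGC, at 57 members (10.1%) against 2.74%, spans parts of both.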
